A study of Homo sapiens with 10 samples.

Results

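Lysosomal hydrolases, lysosomal membrane proteins and subunits of the lysosomal proton pump were followed through drug treatment of human liver cancer cell lines. They are the 51 genes of a named list that was matched by symbol to the deposited expression table, and all 51 were found among its 20030 entries. By role they comprise 7 lysosomal membrane and transport proteins, 8 proteins of lipid handling and sphingolipid breakdown, 10 proteases and peptidases, 11 enzymes of glycan and glycosaminoglycan breakdown, 7 genes of the V0 sector of the pump with its accessory protein, and 8 of the V1 sector. GRN, which encodes a precursor protein and not a protease, is counted with the proteases and peptidases.

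The RNA came from established liver cancer lines that the labels call Huh7, PLC and 97H, and the study concerns senescence under joint inhibition of CDK4/6 and of the nuclear export receptor XPO1. PLC and 97H cells received both inhibitors together (the combination), the XPO1 inhibitor alone, named KPT330 in the titles, the CDK4/6 inhibitor alone, whose name is not given, or vehicle as control. Huh7 cells received the CDK4/6 inhibitor or vehicle. There are 10 libraries, with 1 for each line and treatment, so that the combination and the XPO1 inhibitor have 2 libraries each and the CDK4/6 inhibitor and control have 3 each. The labels hold neither doses nor durations.

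The lysosome is the acidic compartment in which cathepsins, glycosidases, sulfatases and lipases break down proteins, glycans and lipids. Its acidity is made by the V-ATPase, a rotary proton pump whose cytosolic V1 sector hydrolyses ATP and whose membrane V0 sector carries protons across the membrane. Many lysosomal genes carry an E-box-like element near their start that the MiT/TFE transcription factors, such as TFEB and TFE3, bind, and high lysosomal beta-galactosidase activity is a widely used mark of senescent cells.

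Levels are FPKM, the fragments counted for a gene divided by its transcript length and by the size of the library, so that levels of different genes can be set side by side per length. Between 14033 and 15264 entries were above 0 FPKM in a library, and the read depth is unknown because the table holds no counts. All 10 hepatocyte and liver cancer markers examined, ALB among them, were above 1 FPKM in every Huh7 and PLC library, but 5 to 7 of the 10 were in the 97H libraries, where ALB stood between 2.32 and 15.9 FPKM. Of 8 macrophage and other leukocyte markers, 1 to 3 were above 1 FPKM in a library, and their summed FPKM was 218.5 in PLC and 82.3 in 97H with the combination, 258.8 and 52.6 with the XPO1 inhibitor, 116.8 and 66.2 with the CDK4/6 inhibitor and 40.6 and 49.4 in control, with 149.1 in CDK4/6 inhibitor-treated and 109.0 in control Huh7 cells. The pan-leukocyte marker PTPRC did not exceed 0.0226 FPKM in any library and MARCO was listed at 0 in all PLC and 97H libraries, so the summed level rested on CD68, itself a lysosomal membrane protein, and LYZ. The 5 fibroblast and stellate markers summed to 30.7 FPKM in combination-treated 97H cells, 7.83 with the XPO1 inhibitor, 8.36 with the CDK4/6 inhibitor and 3.58 in control, most of it LUM in each. They summed to 63.3 FPKM in CDK4/6 inhibitor-treated and 18.6 FPKM in control Huh7 cells, and to no more than 0.683 FPKM in any PLC library, with DCN at most at 0.114 FPKM in all 10 libraries. The part of these markers in the results below was not tested.

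In control cells the proteins of the lysosomal lumen and the V0 sector headed the members by level. The median over the 3 control libraries was 411.1 FPKM for CTSD, the main aspartic protease of the lysosome, 391.5 FPKM for PSAP, the precursor of the saposins that help sphingolipid enzymes, and 234.2 FPKM for the V0 subunit gene ATP6V0E1. The V1 subunit gene ATP6V1F was nearly level between lines, at 137.0 to 138.0 FPKM in the controls. Other members marked a line. CTSF, a cysteine cathepsin, had 0.328 FPKM in control 97H cells against 27.1 in Huh7 and 32.8 in PLC, CTSH, an aminopeptidase cathepsin, had 1.13 FPKM in control PLC cells against 28.9 in Huh7 and 12.3 in 97H, and IDS, which removes sulfate from heparan and dermatan sulfate, had 48.1 FPKM in control 97H cells against 1.94 in Huh7 and 3.96 in PLC. These 4 genes were picked after their values were seen.

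Under the combination most of the lysosomal genes stood above control in both PLC and 97H. The members made up 2.66% of all FPKM in combination-treated PLC cells and 1.76% in combination-treated 97H cells. With the XPO1 inhibitor alone the share was 1.34% in PLC and 1.25% in 97H, and with the CDK4/6 inhibitor alone it was 1.71% in PLC, 1.41% in 97H and 1.42% in Huh7. Control cells had 1.18% in PLC, 1.05% in 97H and 0.792% in Huh7. The combination library had the highest share in PLC and in 97H, and the control library had the lowest in all 3 lines. In bulk RNA, fewer cells of a type and less RNA per cell cannot be told apart, and a share of all FPKM also moves with the other genes in the sum.

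**Figure D1:**
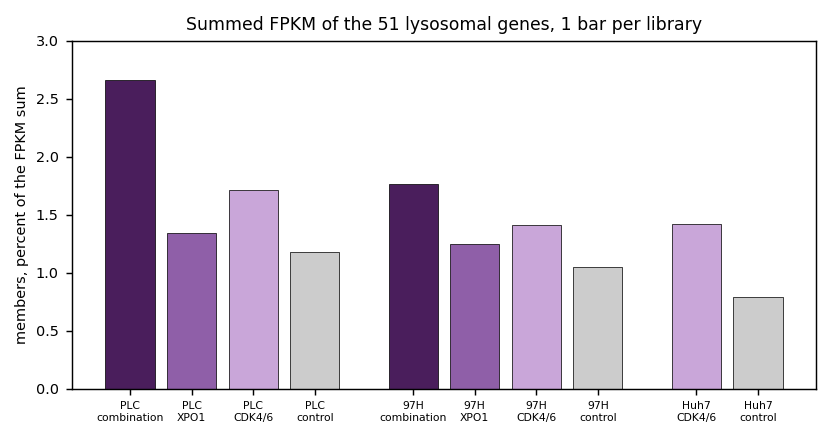
Summed FPKM of the 51 lysosomal genes as a percent of the FPKM sum of each library, 1 bar per library, grouped by line, with the treatments of a line in the order combination, XPO1 inhibitor, CDK4/6 inhibitor, control. The combination bars reach 2.66% in PLC and 1.76% in 97H, above all other bars of their line, and the control bars are the lowest at 1.18%, 1.05% and 0.792%.

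Differences were fitted with limma on log2(FPKM + 1) over the 10477 genes that averaged 1 FPKM or more, with the cell line as a block, and log2 differences below are on that scale. Within a line they are ratios of single libraries. All 51 members passed that minimum, but ATP6V0D2 passed it only through libraries with the XPO1 inhibitor or the combination, so it had to differ from control to be tested and its p is read as a description. Since each line and treatment has 1 library, the p-values rest on the spread of the responses between cell lines together with noise between libraries. These cannot be told apart.

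In the combination against control, 2 of the 51 members, GRN and ATP6V0D2, rose with an adjusted p under 0.05 and none fell, where 83 of all 10477 genes passed, which is 0.792%. ATP6V0D2 is counted with the limit on its selection given above, so GRN is the 1 call free of that limit. At an unadjusted p under 0.05, 25 members were higher, against 6.35% of all genes, and 1 was lower. In both lines alike, 41 members were above control, against 29.6% of all genes, 1 was below and 9 differed in direction between the lines. The median log2 difference of the members was 0.83, with 0.85 in PLC and 0.90 in 97H, where the median over all tested genes was 0.07. In PLC 25 members had at least 2 times their control FPKM, where 20.7% of tested genes did, and in 97H 23 members did, where 13.0% did.

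**Figure D2:**
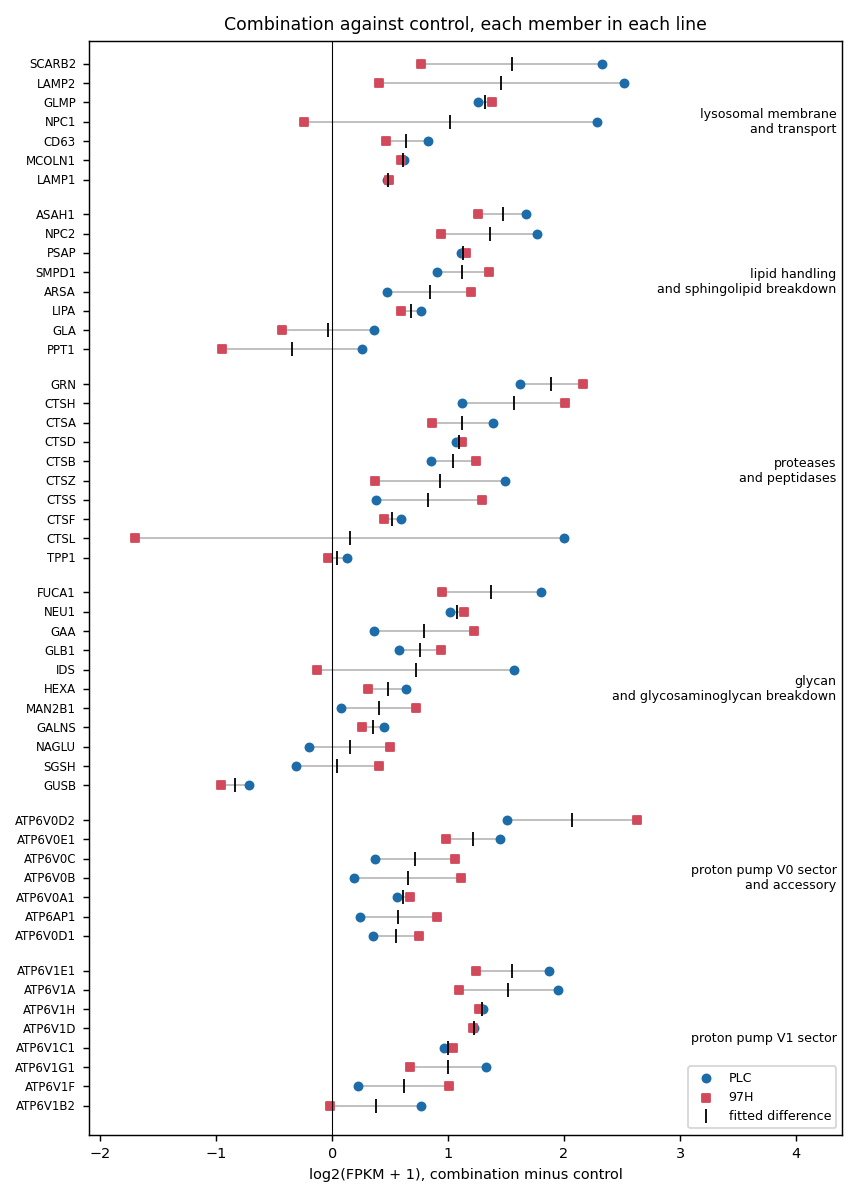
Log2(FPKM + 1) in the combination minus control for each of the 51 members, in PLC (circles) and 97H (squares), with a tick at the fitted difference and the members grouped by role. Most points lie right of 0 in both lines: 41 members are higher in both, GUSB is lower in both and 9, CTSL with the widest gap, lie on both sides.

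ATP6V0D2, the d2 subunit of the V0 sector, which is known mainly from osteoclasts and macrophages, had the smallest p of the members. It had 1.94 and 5.53 FPKM with the combination in PLC and 97H. With the XPO1 inhibitor it had 0.6 and 1.95 FPKM in those lines, with the CDK4/6 inhibitor 0.282 and 0.379 FPKM, and in control cells 0.0303 and 0.0558 FPKM. Huh7 cells had 0.102 FPKM with the CDK4/6 inhibitor and 0.186 FPKM in control. The 97H combination library was the highest, the PLC combination library and the 97H library with the XPO1 inhibitor were level with each other below it, and control was near 0 in every line. The log2 difference was 2.07 (SE 0.33, adjusted p = 0.0345) with limma, a value that the pseudocount of 1 holds down at such levels, and with a pseudocount of 0.1 it was 4.57 (adjusted p = 0.0105). ATP6V0D1, the d1 subunit of the same position in the pump that is made in most tissues, had 133 and 67 FPKM with the combination in PLC and 97H, 79.9 and 43.6 FPKM with the XPO1 inhibitor, 124 and 65.8 FPKM with the CDK4/6 inhibitor and 104 and 39.4 FPKM in control. Huh7 had 46.7 FPKM of it with the CDK4/6 inhibitor and 38.1 FPKM in control. The d1 transcript was the far more abundant of the pair per length in every library, and its combination difference of 0.55 (SE 0.27, adjusted p = 0.452) with limma did not pass.

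GRN, which encodes progranulin, a lysosomal and secreted precursor that is cut into granulins, was the other member that rose. It had 467 and 327 FPKM with the combination in PLC and 97H, 161 and 159 FPKM with the XPO1 inhibitor, 163 and 173 FPKM with the CDK4/6 inhibitor and 151 and 72.3 FPKM in control. Huh7 had 145 FPKM with the CDK4/6 inhibitor and 65.6 FPKM in control. Both combination libraries were above every other library, and the single-drug libraries of 97H lay between its combination and control libraries, while those of PLC were close to its control. The log2 difference was 1.89 (SE 0.32, adjusted p = 0.039) with limma, a fold of 3.71 on the scale with the pseudocount. Without the PLC combination library, the 97H combination library, the PLC control or the 97H control, the adjusted p was 0.227, 0.253, 0.082 and 0.0749 for ATP6V0D2 and 0.309, 0.269, 0.065 and 0.0607 for GRN, so that with limma neither passed once any of these 4 libraries was left out. Without the cell line as a block the adjusted p was 1 for ATP6V0D2 and 0.921 for GRN.

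**Figure D3:**
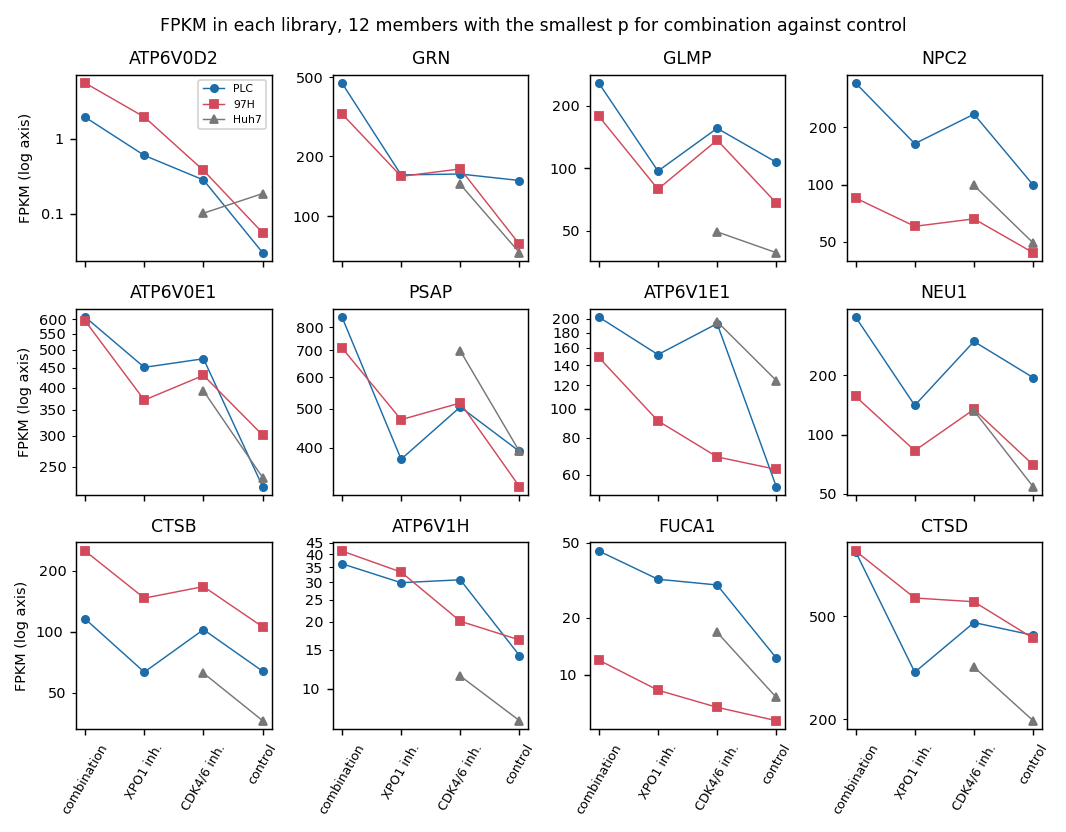
FPKM on log axes in each library for the 12 members with the smallest p in the combination against control, with PLC as circles, 97H as squares and Huh7 as triangles. In PLC and 97H the combination point is the highest of the 4 treatments in every panel; ATP6V0D2 reaches 5.53 FPKM in combination-treated 97H cells, against 0.0558 FPKM in control 97H cells.

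Among the lysosomal membrane and transport proteins, 6 of 7 were above control in both lines under the combination and none passed the test, with log2 differences from 0.48 to 1.55. GLMP, a glycosylated protein of the lysosomal membrane, had 257 and 178 FPKM with the combination in PLC and 97H, 96.9 and 79.3 FPKM with the XPO1 inhibitor, 156 and 137 FPKM with the CDK4/6 inhibitor and 107 and 68 FPKM in control. In Huh7 it had 49.3 FPKM with the CDK4/6 inhibitor and 39.2 FPKM in control. Within PLC and within 97H the combination library was highest and the CDK4/6 inhibitor library came next, and the difference of 1.32 (SE 0.26, adjusted p = 0.0687) with limma did not pass. LAMP1, the most used marker of the lysosomal membrane, had 281 and 59.3 FPKM with the combination in PLC and 97H, 114 and 52.2 FPKM with the XPO1 inhibitor, 177 and 67.7 FPKM with the CDK4/6 inhibitor and 202 and 41.9 FPKM in control. Huh7 cells had 167 FPKM of LAMP1 with the CDK4/6 inhibitor and 97 FPKM in control. In PLC the XPO1 inhibitor and CDK4/6 inhibitor libraries were both below control and the combination above it, and the combination difference was 0.48 (SE 0.34, adjusted p = 0.644) with limma. The other 5 of this role include LAMP2, SCARB2, which escorts glucocerebrosidase to lysosomes, MCOLN1, a lysosomal calcium channel, and NPC1, which moves cholesterol out of lysosomes and had a log2 difference of 2.28 in PLC and -0.24 in 97H.

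Among the genes of lipid handling and sphingolipid breakdown, 6 of 8 were above control in both lines under the combination, with log2 differences from -0.35 to 1.47 and none past the test. NPC2, the soluble partner that hands cholesterol to NPC1, had 342 and 84.9 FPKM with the combination in PLC and 97H, 164 and 60.3 FPKM with the XPO1 inhibitor, 235 and 66 FPKM with the CDK4/6 inhibitor and 99.5 and 43.8 FPKM in control. The Huh7 levels were 99 FPKM with the CDK4/6 inhibitor and 49.3 FPKM in control. Every treated library stood above the control of its line, and the combination difference was 1.36 (SE 0.29, adjusted p = 0.0876) with limma. PSAP had 847 and 709.8 FPKM with the combination in PLC and 97H, 375 and 470.0 FPKM with the XPO1 inhibitor, 506 and 517 FPKM with the CDK4/6 inhibitor and 392 and 319.9 FPKM in control. CDK4/6 inhibitor-treated Huh7 cells had 697 FPKM and control Huh7 cells 392 FPKM. The PLC library with the XPO1 inhibitor was the only treated library below its control, and the combination difference was 1.13 (SE 0.26, adjusted p = 0.118) with limma. PPT1, which strips palmitate from proteins, and GLA, the alpha-galactosidase of globotriaosylceramide, were the 2 that differed in direction between the lines, both higher in PLC and lower in 97H. The remaining genes are ASAH1, SMPD1, LIPA and ARSA, which encode acid ceramidase, acid sphingomyelinase, lysosomal acid lipase and arylsulfatase A.

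Of the 10 members grouped as proteases and peptidases, 8 were above control in both lines under the combination, with log2 differences from 0.04 to 1.89. The 1 that passed, at 1.89, was GRN, which encodes a precursor and not a protease, and no protease passed. CTSB, a cysteine cathepsin, had 116 and 251 FPKM with the combination in PLC and 97H, 63.2 and 147 FPKM with the XPO1 inhibitor, 103 and 167 FPKM with the CDK4/6 inhibitor and 63.8 and 106 FPKM in control. In Huh7 it had 62.4 FPKM with the CDK4/6 inhibitor and 36.3 FPKM in control. The XPO1 inhibitor library was level with control in PLC and above it in 97H, and the combination difference was 1.04 (SE 0.26, adjusted p = 0.145) with limma. CTSD had 887 and 892 FPKM with the combination in PLC and 97H, 304 and 588 FPKM with the XPO1 inhibitor, 472 and 568 FPKM with the CDK4/6 inhibitor and 422 and 411 FPKM in control. Huh7 cells had 318 FPKM of CTSD with the CDK4/6 inhibitor and 198 FPKM in control. The 2 combination libraries were nearly equal and the highest of all, and the difference was 1.09 (SE 0.30, adjusted p = 0.174) with limma. The other cathepsins of the set are CTSA, CTSF, CTSH, CTSL, CTSS and CTSZ, and TPP1 is a tripeptidyl peptidase. CTSL, a cysteine endopeptidase, had 78.5 and 111 FPKM with the combination in PLC and 97H, 59.5 and 162 FPKM with the XPO1 inhibitor, 54.2 and 205 FPKM with the CDK4/6 inhibitor and 18.8 and 365 FPKM in control. Under each treatment it was above control in PLC and below it in 97H, the line with by far the highest control level. It is described because its lines differed most, which was seen in its values.

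Of the 11 enzymes of glycan and glycosaminoglycan breakdown, 7 were above control in both lines under the combination, with log2 differences from -0.84 to 1.37 and none past the test. NEU1, the lysosomal sialidase, which works in a complex with CTSA and GLB1, had 394 and 156 FPKM with the combination in PLC and 97H, 140.5 and 82.9 FPKM with the XPO1 inhibitor, 296 and 134 FPKM with the CDK4/6 inhibitor and 194 and 70.2 FPKM in control. The Huh7 levels were 132 FPKM with the CDK4/6 inhibitor and 54.4 FPKM in control. Its order in PLC was combination, CDK4/6 inhibitor, control, XPO1 inhibitor, and the combination difference was 1.08 (SE 0.27, adjusted p = 0.145) with limma. FUCA1, the lysosomal alpha-fucosidase, had 45.1 and 12 FPKM with the combination in PLC and 97H, 32 and 8.3 FPKM with the XPO1 inhibitor, 29.8 and 6.74 FPKM with the CDK4/6 inhibitor and 12.3 and 5.73 FPKM in control. CDK4/6 inhibitor-treated Huh7 cells had 16.8 FPKM and control Huh7 cells 7.6 FPKM. All treated libraries lay above the control of their line, and the combination difference was 1.37 (SE 0.37, adjusted p = 0.164) with limma. GUSB, the beta-glucuronidase, was the 1 member below control in both lines, with 16.4 and 11.9 FPKM with the combination in PLC and 97H, 19.4 and 21 FPKM with the XPO1 inhibitor, 12.5 and 19.1 FPKM with the CDK4/6 inhibitor and 27.8 and 24 FPKM in control. In Huh7 it had 18.8 FPKM with the CDK4/6 inhibitor and 22.6 FPKM in control. Every treated library lay below the control of its line. The combination difference of -0.84 (SE 0.35, adjusted p = 0.369) with limma did not pass, and RefSeq names 19 pseudogenes after GUSB, so the assignment of its reads is uncertain. GLB1, the beta-galactosidase whose activity is stained in senescent cells, was named for that role and after its values were seen. It had 50.3 and 39.1 FPKM with the combination in PLC and 97H, 31.1 and 26.3 FPKM with the XPO1 inhibitor, 37.9 and 32 FPKM with the CDK4/6 inhibitor and 33.3 and 19.9 FPKM in control. Huh7 cells had 97.6 FPKM of GLB1 with the CDK4/6 inhibitor and 52.9 FPKM in control. Within PLC and within 97H the combination library was the highest and within Huh7 the inhibitor library was, while the PLC library with the XPO1 inhibitor was just below its control. The difference under the combination was 0.76 (SE 0.29, adjusted p = 0.322) with limma.

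All 7 genes of the V0 sector and its accessory protein were above control in both lines under the combination, with log2 differences from 0.55 to 2.07, and the adjusted p of 1, ATP6V0D2, was under 0.05, with the limit on its selection given above. ATP6V0E1 had 608 and 594 FPKM with the combination in PLC and 97H, 451 and 371 FPKM with the XPO1 inhibitor, 475 and 429.9 FPKM with the CDK4/6 inhibitor and 222 and 301 FPKM in control. The Huh7 levels were 392 FPKM with the CDK4/6 inhibitor and 234 FPKM in control. All treated libraries stood above all 3 controls, and the combination difference was 1.21 (SE 0.27, adjusted p = 0.0965) with limma. ATP6V0C forms the proton-carrying ring, ATP6V0B is a related ring protein, ATP6V0A1 holds the proton channels and ATP6AP1 is the accessory protein.

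Of the 8 genes of the V1 sector 7 were above control in both lines under the combination, with log2 differences from 0.38 to 1.55, and none passed. ATP6V1E1, part of the outer stalk, had 203 and 149 FPKM with the combination in PLC and 97H, 152 and 91 FPKM with the XPO1 inhibitor, 193 and 68.9 FPKM with the CDK4/6 inhibitor and 54.7 and 62.6 FPKM in control. CDK4/6 inhibitor-treated Huh7 cells had 196 FPKM and control Huh7 cells 124 FPKM. The combination difference was 1.55 (SE 0.37, adjusted p = 0.129) with limma. ATP6V1H, a regulatory subunit, had 36.3 and 41.4 FPKM with the combination in PLC and 97H, 29.9 and 33.3 FPKM with the XPO1 inhibitor, 30.8 and 20.1 FPKM with the CDK4/6 inhibitor and 14.1 and 16.6 FPKM in control. In Huh7 it had 11.4 FPKM with the CDK4/6 inhibitor and 7.21 FPKM in control. For both genes every treated library lay above the control of its line, and the combination difference of ATP6V1H was 1.29 (SE 0.33, adjusted p = 0.145) with limma. ATP6V1A and ATP6V1B2 make up the ATP-binding head, and ATP6V1C1, ATP6V1D, ATP6V1F and ATP6V1G1 belong to the stalks.

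By role, the medians of the single-line differences under the combination were 1.26 in PLC and 0.49 in 97H for membrane and transport proteins, 0.83 and 1.04 for lipid handling, and 1.09 and 0.99 for proteases. They were 0.45 in PLC and 0.50 in 97H for glycan breakdown, 0.37 and 0.98 for the V0 sector, and 1.26 and 1.07 for the V1 sector. No role had a median at or below that of all genes, which was 0.10 in PLC and -0.01 in 97H. The membrane proteins and the V0 sector were the roles in which the lines stood furthest apart in the values as deposited. With GC content and length trends removed the membrane medians were 1.58 in PLC and 0.43 in 97H, still the furthest apart. The V0 medians were then 0.68 in PLC and 0.81 in 97H and those of the proteases 1.27 and 0.70.

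The promoters of members show how far 3 exact forms of the E-box-like element are shared within the set. The windows below are those of NEU1 and CTSD, the members among the 12 with the smallest p whose windows hold such a form. GRN is the member with the smallest p among those whose windows hold none of the 3, and its window is printed too. The GRN window does hold a close form of the element, which is described below. LAMP1 and CTSA are added as windows with the full palindrome TCACGTGA and were chosen after values and motifs were seen. Each window holds 300 bases of GRCh38.p14 from RefSeq, 250 before and 50 after the start, read 5′ to 3′ on the strand of the gene, and capitals mark TCACGTG or its reverse complement, or, where TCACGTGA is present, that longer run alone, with copies of the shorter motif in LAMP1 and CTSA left in lower case. NEU1 lies at chr6:31862772-31863071, minus strand, CTSD at chr11:1763878-1764177, minus strand, GRN at chr17:44345052-44345351, plus strand, LAMP1 at chr13:113296989-113297288, plus strand and CTSA at chr20:45891085-45891384, plus strand.
NEU1: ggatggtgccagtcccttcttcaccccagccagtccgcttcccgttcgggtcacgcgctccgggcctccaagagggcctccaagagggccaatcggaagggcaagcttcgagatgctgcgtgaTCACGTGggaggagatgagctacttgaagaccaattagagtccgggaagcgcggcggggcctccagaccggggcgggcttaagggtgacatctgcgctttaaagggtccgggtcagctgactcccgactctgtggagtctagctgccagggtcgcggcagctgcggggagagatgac
CTSD: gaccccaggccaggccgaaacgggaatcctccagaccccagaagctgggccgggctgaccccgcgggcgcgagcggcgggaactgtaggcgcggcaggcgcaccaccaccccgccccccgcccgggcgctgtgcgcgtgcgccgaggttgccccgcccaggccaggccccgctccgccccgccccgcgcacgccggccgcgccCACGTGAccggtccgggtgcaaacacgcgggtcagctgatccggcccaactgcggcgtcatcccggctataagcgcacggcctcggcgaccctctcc
LAMP1: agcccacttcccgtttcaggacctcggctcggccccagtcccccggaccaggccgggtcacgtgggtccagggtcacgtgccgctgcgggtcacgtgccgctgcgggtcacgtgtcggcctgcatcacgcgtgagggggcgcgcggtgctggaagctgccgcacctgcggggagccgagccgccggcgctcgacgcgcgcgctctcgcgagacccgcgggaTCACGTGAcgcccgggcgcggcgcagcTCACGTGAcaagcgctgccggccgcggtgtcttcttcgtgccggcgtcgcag
CTSA: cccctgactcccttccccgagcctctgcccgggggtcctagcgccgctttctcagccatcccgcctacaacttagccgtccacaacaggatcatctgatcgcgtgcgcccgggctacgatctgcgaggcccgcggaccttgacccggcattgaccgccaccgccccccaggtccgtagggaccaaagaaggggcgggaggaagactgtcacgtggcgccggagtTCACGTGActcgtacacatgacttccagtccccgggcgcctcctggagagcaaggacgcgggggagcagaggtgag
GRN: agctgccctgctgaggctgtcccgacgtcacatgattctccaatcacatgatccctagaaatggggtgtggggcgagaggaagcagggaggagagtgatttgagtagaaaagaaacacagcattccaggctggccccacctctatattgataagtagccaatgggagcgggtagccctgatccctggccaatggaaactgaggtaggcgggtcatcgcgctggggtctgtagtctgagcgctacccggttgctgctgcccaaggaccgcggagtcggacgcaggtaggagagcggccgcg
The centre of the first run in capitals lies 123 bases before the start in NEU1, 43 in CTSD, 25 in LAMP1, which holds 2 copies of TCACGTGA, and 22 in CTSA, and GRN holds none of the 3 motifs.

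A window was at hand for 36 of the 51 members, and 3 motifs, each nested in the next, were searched on both strands. TCACGTGA was in the windows of 7 of 36 members, or 19.4%, against 1.18% of 27305 genes with a window, and the 7 are ATP6V0D1, ATP6V1G1, CTSA, GAA, GALNS, LAMP1 and MCOLN1. TCACGTG was in 11 of 36 members, or 30.6%, against 4.49% of those genes, which adds ATP6V0B, CTSD, CTSF and NEU1. CACGTG was in 12 of 36 members, or 33.3%, against 8.77% of those genes, which adds CD63, while none of the 5 lipid handling genes with a window held it. A gene can have several windows, and a match in any of them counts. The members with TCACGTGA had a median log2 difference of 0.61 under the combination, running from 0.35 to 1.12, and the 24 with none of the 3 motifs had 0.74, running from -0.84 to 1.89. The 4 whose longest match was TCACGTG had 0.86, and the motif content of the 15 members without a window is unknown. A match is a run of letters in this window and was not tested for binding. Other forms of the element were not searched across genes. Some of the 24 with none of the 3 motifs hold the close form TCACATGA on either strand, GRN, GLMP, TPP1 and PPT1 among them. The medians above therefore do not compare members with and without the element.

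With the XPO1 inhibitor alone, 0 of the 51 members passed with limma, as did 0 of all genes, or 0%, and 5 members were higher at an unadjusted p under 0.05, against 1.79% of all genes. In both lines, 19 members were above control, against 21.7% of all genes, and 3 were below. The median log2 difference was 0.22, with 0.07 in PLC and 0.24 in 97H, and the median over all tested genes was 0.10, with 0.14 in PLC and -0.02 in 97H, so that in PLC the members' median lay below that of all genes. The 4 members with the smallest p were pump subunits: ATP6V0D2 at 1.06 (SE 0.33), ATP6V1H at 1.0 (SE 0.33), ATP6V1E1 at 0.99 (SE 0.37) and ATP6V0E1 at 0.66 (SE 0.27), each with an adjusted p of 0.968 from limma. The limit on the selection of ATP6V0D2 given above applies to its place here. The V1 sector's median stood at 1.29 in PLC and 0.09 in 97H, but that of the V0 sector at -0.30 in PLC and 0.30 in 97H. That of glycan breakdown stood at -0.50 in PLC and 0.37 in 97H. In PLC 14 members had at least 2 times their control FPKM, where 26.8% of all genes did, and in 97H 5 did, where 6.00% did.

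With the CDK4/6 inhibitor alone, which all 3 lines received, 0 of the 51 members passed with limma, as did 0 of all genes, or 0%, and 18 members were higher at an unadjusted p under 0.05, against 4.57% of all genes. In all 3 lines, 26 members were above control, against 12.9% of all genes, and 1 was below. The median log2 difference was 0.51, with 0.69 in Huh7, 0.45 in PLC and 0.46 in 97H. Over all tested genes it was 0.03, with -0.04 in Huh7, 0.18 in PLC and -0.06 in 97H. NEU1 stood at 0.93 (SE 0.21, adjusted p = 0.461), NPC2 at 0.93 (SE 0.22, adjusted p = 0.461) and ATP6V0E1 at 0.78 (SE 0.19, adjusted p = 0.461) with limma. CD63, a tetraspanin of late endosomes and lysosomes, had 299.8, 283 and 479 FPKM with the CDK4/6 inhibitor in Huh7, PLC and 97H, against 188, 182 and 318 FPKM in control. With the combination it had 324 and 437 FPKM in PLC and 97H and with the XPO1 inhibitor 199 and 329.5 FPKM. Each CDK4/6 inhibitor library was above the control of its line, and the difference was 0.63 (SE 0.18, adjusted p = 0.47) with limma. In Huh7, where the members' FPKM share went furthest above control, 10 members had at least 2 times their control FPKM, against 7.55% of all genes, with CTSF at 96.6 FPKM with the inhibitor and 27.1 FPKM in control as the widest ratio. In PLC 19 of the 51 members did, where 29.2% of all genes did, and in 97H 7 did, where 6.88% did.

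**Figure D4:**
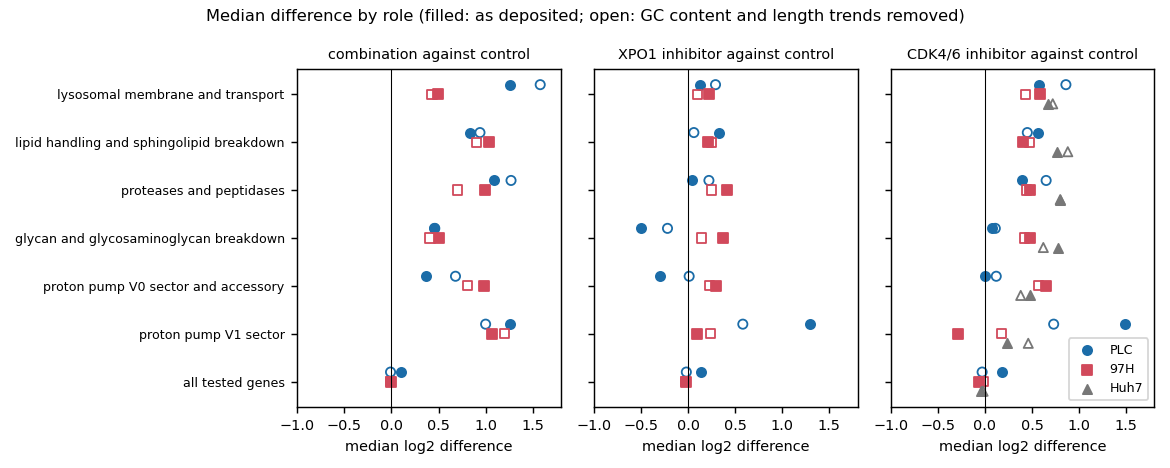
Median log2 difference of each role and of all tested genes in the combination, the XPO1 inhibitor and the CDK4/6 inhibitor, each against control, by line, with filled points as deposited and open points after removal of trends with transcript GC content and length. Under the combination every role lies above 0 in both lines; under the CDK4/6 inhibitor the V1 sector stands at 1.49 in PLC and -0.29 in 97H before and at 0.73 and 0.18 after removal.

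In the combination against the CDK4/6 inhibitor, 0 of the 51 members passed with limma, where 0% of all genes did, and 4 members were higher at an unadjusted p under 0.05, against 1.30% of all genes. In both lines 29 members were above the CDK4/6 inhibitor, against 20.7% of all genes, and the median log2 difference was 0.43. ATP6V0D2 stood at 1.72 (SE 0.33, adjusted p = 0.214), GRN at 1.21 (SE 0.32, adjusted p = 0.625), CTSD at 0.78 (SE 0.30, adjusted p = 1) and PSAP at 0.60 (SE 0.26, adjusted p = 1) with limma. For ATP6V0D2 the limit on its selection given above applies here too. All 7 genes of the V0 sector and its accessory protein were above the CDK4/6 inhibitor in both lines.

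In the combination against the XPO1 inhibitor, 0 of the 51 members passed with limma, where 0% of all genes did, and 13 members were higher at an unadjusted p under 0.05, against 2.16% of all genes. In both lines 40 members were above the XPO1 inhibitor, against 24.2% of all genes, 2 were below, and the median log2 difference was 0.61. GLMP stood at 1.28 (SE 0.26, adjusted p = 0.283), NEU1 at 1.19 (SE 0.27, adjusted p = 0.328), GRN at 1.28 (SE 0.32, adjusted p = 0.458) and CTSD at 1.07 (SE 0.30, adjusted p = 0.579) with limma. The comparisons with each inhibitor and with control share the combination libraries.

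Within PLC the combination library was the highest of the 4 treatments for 39 of 51 members, where it was for 22.0% of all tested genes, and within 97H it was for 36 members, where it was for 31.8%. For 28 members, or 54.9%, it was the highest in both lines, where it was for 8.97% of all tested genes. The control library was the lowest for 25 members in PLC, or 49.0%, close to the 42.7% of all tested genes, and for 35 in 97H, or 68.6%, where it was for 27.9%. In PLC the XPO1 inhibitor library was the lowest for 22 members, or 43.1%, where it was for 19.7% of all tested genes.

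Whether the combination departed from the sum of the single-drug differences was fitted as an interaction. With limma 0 of the 51 members passed, where 0% of all genes did, and 0 members lay above the sum at an unadjusted p under 0.05, where 0.0573% of all genes did. The median departure of the members was 0.18, with 0.48 in PLC and -0.02 in 97H, and that of all tested genes was -0.11, with -0.21 in PLC and 0.01 in 97H. The members' value was 0.09 without the PLC library with the XPO1 inhibitor and 0.34 without the 97H control, the lowest and highest with 1 library left out. CTSD stood at 0.76 (SE 0.43, adjusted p = 1) and ATP6V0D2 at 0.66 (SE 0.46, adjusted p = 1) with limma. TPP1 had 112 and 30.7 FPKM with the combination in PLC and 97H, 54.4 and 30.1 FPKM with the XPO1 inhibitor, 40.3 and 42.5 FPKM with the CDK4/6 inhibitor and 102 and 31.7 FPKM in control. Huh7 cells had 65.6 FPKM of TPP1 with the CDK4/6 inhibitor and 36.3 FPKM in control. Both single-drug libraries of PLC were below control while the combination was slightly above it, and the departure was 0.98 (SE 0.63, adjusted p = 1) with limma. GAA, the acid alpha-glucosidase that breaks down lysosomal glycogen, had 20.9 and 10.4 FPKM with the combination in PLC and 97H, 5.38 and 6.08 FPKM with the XPO1 inhibitor, 7.72 and 10.3 FPKM with the CDK4/6 inhibitor and 16 and 3.88 FPKM in control. The Huh7 levels were 33.1 FPKM with the CDK4/6 inhibitor and 18.9 FPKM in control. It too was below control with each single drug in PLC and above it in 97H, and the departure was 1.11 (SE 0.77, adjusted p = 1) with limma. For the V1 sector the median departure was -1.39 in PLC and 0.88 in 97H.

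These single-drug differences ran with the base composition of the transcripts. Under the CDK4/6 inhibitor, Spearman's rho between a member's difference and its transcript GC content was -0.74 in PLC, 0.721 in 97H and 0.351 in Huh7 over the 51 members, and -0.677, 0.724 and 0.178 over 10391 genes, all genes of a line sharing the same pair of libraries. Under the XPO1 inhibitor rho over the members was -0.798 in PLC and 0.326 in 97H, and under the combination it was -0.487 in PLC and 0.023 in 97H, where all genes had -0.72 and 0.465 under the XPO1 inhibitor and -0.293 and 0.255 under the combination. The V1 genes had a median GC content of 45.4%, against 52.8% for all members. Under the CDK4/6 inhibitor their median difference was 1.49 in PLC, -0.29 in 97H and 0.23 in Huh7 as deposited, and 0.73, 0.18 and 0.46 once smooth trends with GC content and length over all genes had been taken out of each library. For the XPO1 inhibitor the V1 median was 1.29 in PLC and 0.09 in 97H as deposited, and 0.58 and 0.24 after removal. The V1 departure in the interaction was -0.30 in PLC and 0.45 in 97H after removal. Under the combination the median of the 51 members was 0.92 in PLC and 0.75 in 97H after removal, against 0.85 and 0.90 as deposited. The line with the larger median was thus 97H as deposited and PLC after removal. The part of the trends in the members' differences was not tested.

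**Figure D5:**
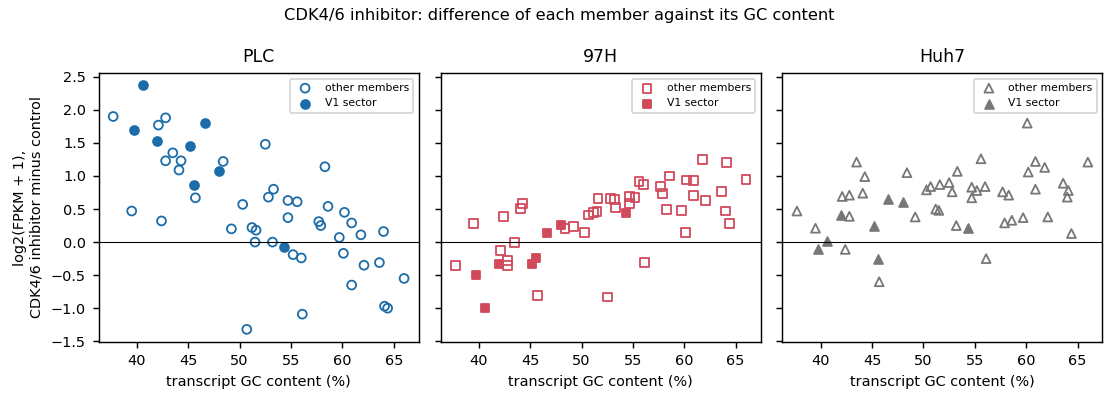
Log2(FPKM + 1) with the CDK4/6 inhibitor minus control for each of the 51 members against its transcript GC content in percent, in PLC, 97H and Huh7, with V1 genes as filled points. The points slope down in PLC (rho -0.74) and up in 97H (rho 0.721), with the low-GC V1 genes at opposite ends in those lines.

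Other lysosomal genes outside the set were taken as lists of 98 genes, of which 85 were tested and 0 passed in the combination against control with limma. Of 29 tested other lysosomal enzymes and activators, 22 were above control in both lines, where 29.6% of all tested genes were. At an unadjusted p under 0.05, 12 were higher, where 6.35% of all tested genes were, and the median log2 difference was 0.77. In that list LGMN, the asparaginyl endopeptidase, was at 1.09. Under the CDK4/6 inhibitor 11 of the 29 were higher at an unadjusted p under 0.05, against 4.57% of all genes, with a median of 0.61. Under the XPO1 inhibitor 1 was, against 1.79% of all genes, with a median of 0.28. Of 19 tested other membrane proteins and transporters, 9, or 47.4%, were above control in both lines under the combination, against 29.6% of all genes. At an unadjusted p under 0.05, 3 were higher, against 6.35% of all genes, and the median was 0.40. CD68, a lysosomal membrane protein that also serves as a macrophage marker, had 127 and 81.1 FPKM with the combination and 22.7 and 48.5 FPKM in control in PLC and 97H, with PTPRC at no more than 0.00832 FPKM in those 4 libraries. The 5 tested other pump subunits had a median of 0.29, with 2 above control in both lines and 0 at an unadjusted p under 0.05. The 15 tested genes of mannose 6-phosphate tagging and sorting, which bring hydrolases to the lysosome, had a median of 0.31. In both lines 5 of them, or 33.3%, were above control, close to the 29.6% of all genes. At an unadjusted p under 0.05, 4 were higher, against 6.35% of all genes, GNPTG at 1.28 and the receptor gene IGF2R at 1.16 among them. The 17 tested MiT/TFE factors and lysosomal mTORC1 scaffold genes had a median of 0.28, with 8, or 47.1%, above control in both lines. At an unadjusted p under 0.05, 2 were higher, against 6.35% of all genes. TFEB itself had 1.39 and 3.52 FPKM with the combination in PLC and 97H, 1.02 and 1.2 FPKM with the XPO1 inhibitor, 1.53 and 1.23 FPKM with the CDK4/6 inhibitor and 1.41 and 0.554 FPKM in control. With the combination it was level with control in PLC and above it in 97H, and with the XPO1 inhibitor it was below control in PLC. Its PLC values were near the minimum of 1 FPKM.

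RefSeq names pseudogenes after 10 of the members, among them 7 for ATP6V1G1, 6 for CTSL, 4 each for ATP6V0C and ATP6V0E1, and 3 for ATP6V1E1. How the authors' counting treated reads shared with such copies, or with genes on the other strand, is stated in no label, and the values of those members are uncertain to that extent.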

How the data were processed

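RNA-seq of 10 libraries of 3 liver cancer lines was used, 1 per line and treatment, with groups taken from the labels. Per the labels' protocols, RNA was extracted with Trizol and sequenced from TruSeq libraries. Per the submitters' processing notes, CASAVA 1.8.2 called bases, STAR 2.4.2g1 was used with GRCh38, and featureCounts of Subread, version not given, is named. The deposited values are FPKM made by the authors for 20030 entries. How FPKM was derived from counts is not given in the sources used here. Whole reads could not be recovered, since no step fitted the low values (at most 0.618% of the ratios of low values fell in 1 bin), so no count model was run, the depth behind each value is unknown and no counting interval is given.

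Differences were fitted with limma 3.58.1 in R 4.3.3 (variance trend, two-sided) on log2(FPKM + 1), keeping the 10477 genes that averaged 1 FPKM or more over 10 libraries, with the line as a block. The 8 libraries of PLC and 97H were used (3 residual degrees of freedom), and all 10 for the CDK4/6 inhibitor against control (4). p-values were Benjamini-Hochberg adjusted over the 10477 genes of each comparison, and adjusted p under 0.05 was called. Same-line libraries are paired by the cell line label. The 2 libraries of a line (control and CDK4/6 inhibitor) deviated from their groups together, with Pearson's r across genes of 0.901 (Huh7), 0.665 (PLC) and, for 97H, 0.818. Each group spans the lines, so r holds the differences between lines and cannot check how the libraries were handled. The procedure was tested on simulated data with independent noise in each library. Responses there were equal in both lines and held no GC content trend, so that test does not cover these features of the data. GC content and length of transcripts were taken from GENCODE 29, and smooth trends were removed per library with mgcv 1.9.3. The test after removal does not count the degrees of freedom the trends use.

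Members named with all libraries are the 12 with the smallest p in the combination against control, the 4 with the smallest p in each other comparison, LAMP1, CTSB, CTSD and ATP6V0D1, and members lower in both lines. Up to 3 genes are named per further list, by smallest p. Some genes that this rule would name are not reported here. The members and lists were chosen with earlier results of these data known. Promoters came from the RefSeq table of GRCh38.p14, and none is printed from chromosome 8. Alternatives tried were the pseudocount, the filter, the scaling, a single prior variance, no block, all 10 libraries, trend removal and leaving out each library.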

Additional observations from a re-analysis of the deposited data

Results flagged for a closer look

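These members differed from control by at least 0.5 on the log2 scale in opposite directions in PLC and 97H, and the difference between the lines was not tested, since each line has 1 library per treatment. Values are the PLC difference minus the 97H difference from control. CTSL stood apart under all 3 treatments, at 3.70 under the combination, 2.78 under the XPO1 inhibitor and 2.31 under the CDK4/6 inhibitor, higher than control in PLC and lower in 97H each time. GAA stood at -1.95 under the XPO1 inhibitor and -2.17 under the CDK4/6 inhibitor, and ARSA at -1.20 and -1.50 under the same drugs, lower than control in PLC and higher in 97H. Under the CDK4/6 inhibitor the V1 genes ATP6V1A and ATP6V1C1 stood at 3.36 and 2.21 and PPT1 at 1.48, higher in PLC and lower in 97H, and MAN2B1, the alpha-mannosidase, stood at -1.36, lower in PLC and higher in 97H. Transcript GC content was 40.6% for ATP6V1A, 39.7% for ATP6V1C1 and 45.7% for PPT1, and 64.1% for GAA, 66.0% for ARSA and 60.9% for MAN2B1, and its part in these differences was not tested gene by gene.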

How the results depend on the processing

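With limma, 2 members passed in the combination against control, GRN and, with the limit on its selection given above, ATP6V0D2. No member passed with no filter on low genes (0), with a single prior variance (0) or without the cell line as a block, the unpaired fit (0). 1 passed with median ratio scaling, 6 passed with quantile normalization, 11 when all 10 libraries were fitted and 18 with GC content and length trends removed, where the test leaves out the degrees of freedom the trends use. Leaving out 1 library gave 0 to 5: 0 without the combination library of PLC, the combination library of 97H or the control of PLC, 4 without the CDK4/6 inhibitor library of PLC, and 5 without that of 97H or the control of 97H. The cause was not tested.

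The members' median in the combination against control, 0.83, was 0.94 with a pseudocount of 0.1, 0.77 with median ratio scaling, 0.88 with all 10 libraries and 0.74 with the trends removed, and 0.79 to 0.87 with 1 library left out. The XPO1 inhibitor median of 0.22 was 0.07 with median ratio scaling and 0.05 to 0.25 with 1 library left out, at 0.05 without the XPO1 inhibitor library of 97H and 0.08 without its control. The median against the CDK4/6 inhibitor, 0.43, was 0.31 to 0.45 with 1 library left out, and 2 members passed against the XPO1 inhibitor with the trends removed. Neither the median over all 51 members in a comparison nor any of the 15 single-gene differences under the combination that were refitted was reversed, but with the trends removed the V1 median under the CDK4/6 inhibitor in 97H was 0.18, against -0.29 as deposited. The interaction median of 0.18 was 0.07 with all 10 libraries and 0.33 with median ratio scaling, and 0.09 to 0.34 with 1 library left out. Depth is unknown, and 1 library per line and treatment limits every value within a line.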
